A study of Homo sapiens with 6 samples.

Results

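The large subunit of the mitochondrial ribosome is the part of that ribosome that joins amino acids, and it is built from proteins that are all encoded in the nucleus. Its genes were taken here as those with a symbol of MRPL and a number, pseudogenes left out, plus 4 assembly-linked genes, GADD45GIP1, MALSU1, MTERF4 and NSUN4. Of 53 such genes, 52 had a probe set of their own and were measured, 48 MRPL genes and the 4 assembly-linked ones, among 19775 genes in all. MRPL53 shared its probe set with another gene and was not measured singly. The symbols and the named list of 4 fixed the genes, and no threshold on expression was used.

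The study asked which transcripts differ between MDA-MB-231 cells with a knockdown of the mitochondrial protein ATAD3A and control cells. MDA-MB-231 is a breast cancer line of the triple-negative kind, known to be invasive, and ATAD3A is an ATPase of the inner mitochondrial membrane that is tied to mitochondrial DNA and to mitochondrial protein synthesis. The shATAD3A group was 3 arrays of cells infected with a pLKO.1 lentiviral vector carrying short hairpin RNA against ATAD3A. The shGFP group, the control, was 3 arrays of cells infected with the same vector type carrying a hairpin against GFP, a sequence that human cells lack. All cells of both groups had thus been infected, had been kept in 1.0 µg/ml puromycin for 2 weeks and were used at passage 2. All results come from 1 cell line, and the labels give neither the number of hairpins nor the source culture of each replicate, so p-values rest on a spread between arrays that may be technical only. RNA was hybridised to Affymetrix U133 Plus arrays, whose probe sets read the 3' ends of transcripts. Levels are log2 values as deposited, every change is shATAD3A minus shGFP on the log2 scale, and errors are SE of the limma fit unless given as SD.

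Mitochondrial ribosomes make the few proteins that mitochondrial DNA encodes, all of them parts of the respiratory chain and of ATP synthase. The large subunit holds the peptidyl transferase centre, the tunnel through which the new protein leaves, a pair of stalks that handle transfer RNAs and translation factors, and a central protuberance that touches the small subunit. Some of its proteins have counterparts in bacteria and others are found in mitochondria alone, and assembly factors bring them onto the ribosomal RNA in steps. Ribosomes of mitochondria work at the inner membrane, where ATAD3A also lies.

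ATAD3A read 7.41, 7.03 and 7.39 on the shATAD3A arrays, against 7.73, 7.78 and 7.80 on the shGFP arrays. The groups did not overlap, and the change was -0.49 ± 0.105 (limma adjusted p = 0.0129), on a probe set of a type (x_at) whose probes may bind related transcripts. Array medians over all probe sets lay between 3.16 and 3.23, and correlations over probe sets were 0.999 within groups and 0.989 to 0.990 between them. All 6 genes known to be high in MDA-MB-231 lay above the low mode of the values, a peak of dim genes below 4.36, a boundary set after the data were seen. VIM averaged 15.2 on shATAD3A arrays and 15.1 on shGFP arrays, and the epithelial genes ESR1, PGR and ESRP1 lay in the low mode. Leukocyte markers lay in the low mode, 4 of 4 measured, as did 4 of 5 fibroblast markers, while COL1A1 was 9.35 ± 0.037 on shATAD3A arrays and 8.35 ± 0.13 on shGFP arrays (SD, n = 3 each; adjusted p = 0.000116). LUM, another fibroblast marker, was higher by a change of 0.55 within the low mode (adjusted p = 0.037). CD14 was lower by a change of -1.60 within the low mode, and KRT18 was higher by 1.00, while CD44, AXL, MSN and CAV1 were lower by -0.45 to -0.25. The part of other cells in the results was not tested.

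Most large-subunit genes were higher in shATAD3A cells, with a minority lower. Of the 52 genes, 34 were higher, 8 were lower and 10 did not pass limma's test at an adjusted p of 0.05. All 52 lay above the low mode, so the background that bears on them is the 10445 genes above it, of which 36% were higher and 25.2% lower. Over all genes tested, 19.7% were higher and 13.9% lower. The groups did not overlap, with every shATAD3A array above every shGFP array, for 35 of the 52 genes, against 41.8% of genes above the low mode. They did not overlap in the other direction for 8 genes, against 29.4%. The median change was 0.29, with quartiles of 0.028 and 0.50, beside a median of 0.064 and quartiles of -0.22 and 0.36 over genes above the low mode. Changes were moderate, since 8 genes were both called and more than 1.5-fold higher, and 1 gene more than 1.5-fold lower. The median level of the 52 genes was 11.47, 11.46 and 11.48 on the shATAD3A arrays, against 11.22, 11.29 and 11.19 on the shGFP arrays. The groups did not overlap in this summary, nor in the median over all genes tested. That median was 5.27, 5.25 and 5.28 on the shATAD3A arrays, against 5.15, 5.17 and 5.16 on the shGFP arrays. In RNA from whole cultures, fewer cells that carry a transcript and less of it per cell cannot be told apart.

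**Figure D1:**
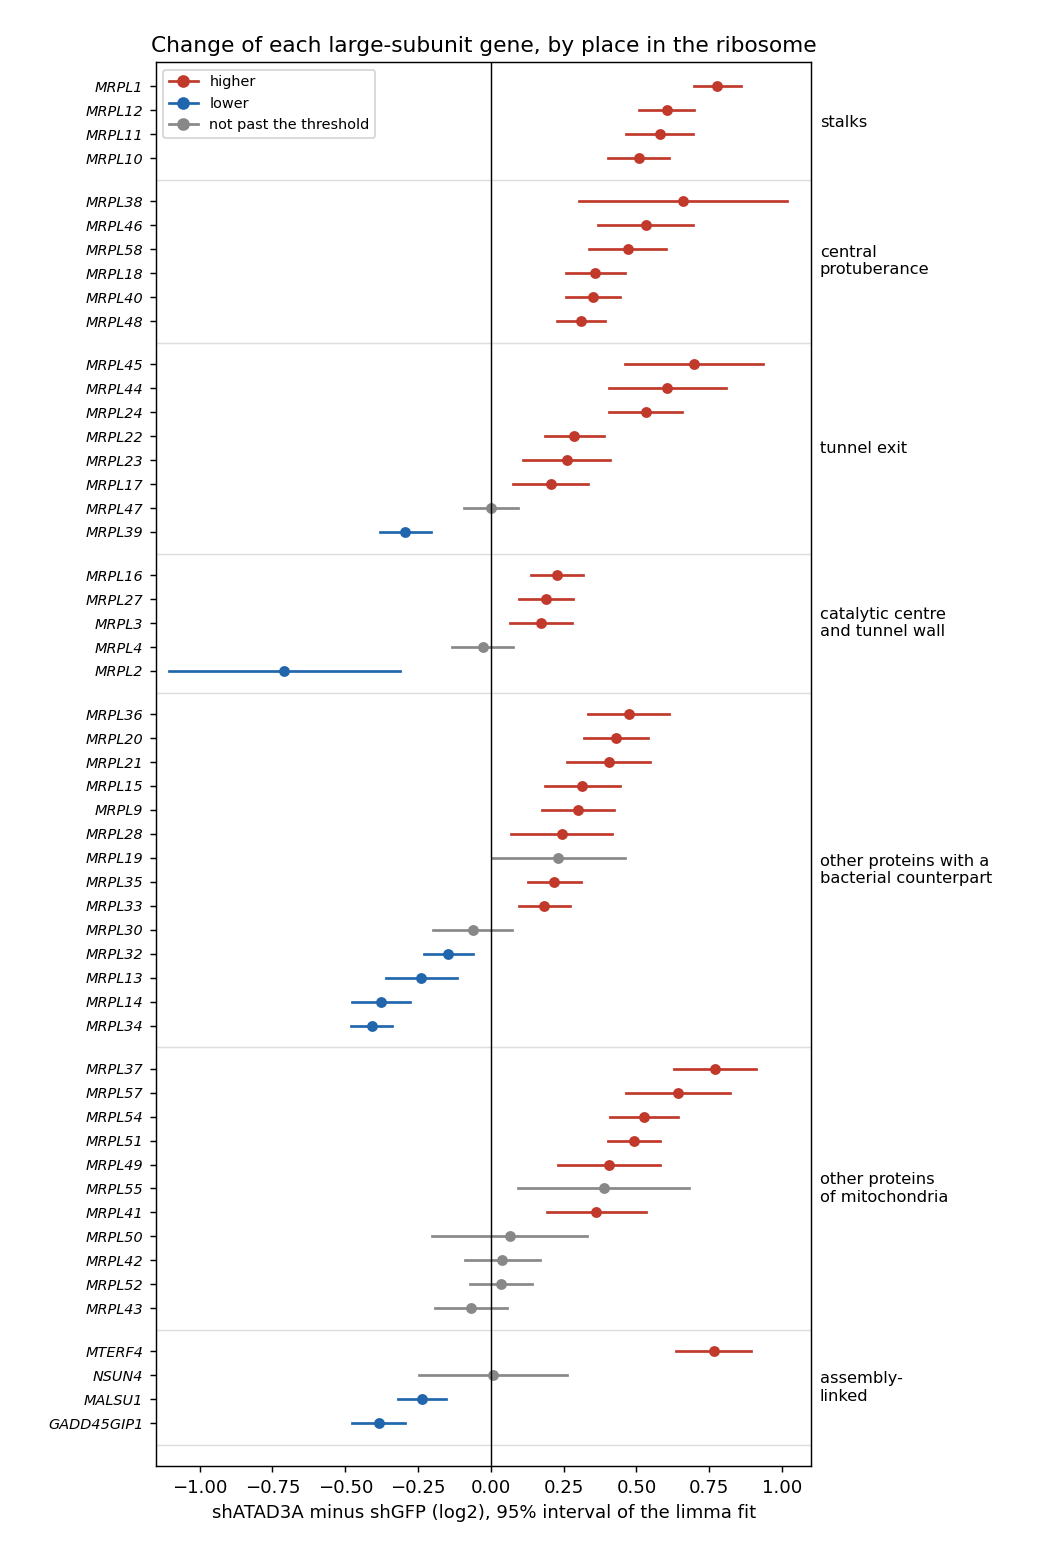
Change of each of the 52 genes, shATAD3A minus shGFP on the log2 scale, with the 95% interval of the limma fit, grouped by place in the ribosome; red is higher, blue lower and grey not past an adjusted p of 0.05. All 4 stalk genes and all 6 genes of the central protuberance lie above 0, and MRPL2, at -0.71, has the lowest change and the widest interval.

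The promoters of many of these genes hold letters of known motifs. They are shown for 6 genes described in full below, chosen among those that hold the GC box, the motif that most of these genes share. The 6 moved in opposite directions. Windows of 300 bases, 250 before and 50 after the start of the gene, came from RefSeq's GRCh38.p14 table, which held 56 windows of 45 of the 52 genes. In each window the letters searched for are in capitals on either strand: GCGCATGCG (NRF1), CCGGAAG (ETS family), AAGATGGC (YY1), CACGTG (E-box), AAGGTCA (ERR) and GGGCGG (GC box). MRPL1, MTERF4, MRPL45 and MRPL38 were higher and are among the genes with the largest increases. GADD45GIP1 and MALSU1 were lower.
MRPL1 (chr4:77862580-77862879, plus strand): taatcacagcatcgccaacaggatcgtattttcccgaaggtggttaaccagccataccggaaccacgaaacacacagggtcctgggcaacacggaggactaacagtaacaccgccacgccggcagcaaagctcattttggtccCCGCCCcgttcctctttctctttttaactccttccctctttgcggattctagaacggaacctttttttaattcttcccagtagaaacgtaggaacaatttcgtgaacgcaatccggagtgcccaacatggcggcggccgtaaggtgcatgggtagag
MTERF4 (chr2:241102238-241102537, minus strand): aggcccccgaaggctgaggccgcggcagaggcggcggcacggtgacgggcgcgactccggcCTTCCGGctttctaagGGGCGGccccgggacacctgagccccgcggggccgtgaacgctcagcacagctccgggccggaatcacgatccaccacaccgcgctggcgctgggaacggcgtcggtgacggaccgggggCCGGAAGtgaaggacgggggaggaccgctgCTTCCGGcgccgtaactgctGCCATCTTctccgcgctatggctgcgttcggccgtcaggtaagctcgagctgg
MRPL45 (chr17:38296918-38297217, plus strand): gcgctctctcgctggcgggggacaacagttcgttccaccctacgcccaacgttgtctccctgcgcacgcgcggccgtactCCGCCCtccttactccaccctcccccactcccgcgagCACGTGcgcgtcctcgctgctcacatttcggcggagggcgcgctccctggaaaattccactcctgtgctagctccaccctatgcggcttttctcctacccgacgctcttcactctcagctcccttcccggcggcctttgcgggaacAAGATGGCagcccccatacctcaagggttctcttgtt
MRPL38 (chr17:75904835-75905134, minus strand): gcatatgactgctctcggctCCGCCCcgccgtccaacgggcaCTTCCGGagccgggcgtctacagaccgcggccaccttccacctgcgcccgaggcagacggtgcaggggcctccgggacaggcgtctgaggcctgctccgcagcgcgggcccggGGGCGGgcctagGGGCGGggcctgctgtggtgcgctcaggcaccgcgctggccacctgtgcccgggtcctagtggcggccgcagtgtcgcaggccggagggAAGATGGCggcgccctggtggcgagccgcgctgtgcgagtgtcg
GADD45GIP1 (chr19:12957174-12957473, minus strand): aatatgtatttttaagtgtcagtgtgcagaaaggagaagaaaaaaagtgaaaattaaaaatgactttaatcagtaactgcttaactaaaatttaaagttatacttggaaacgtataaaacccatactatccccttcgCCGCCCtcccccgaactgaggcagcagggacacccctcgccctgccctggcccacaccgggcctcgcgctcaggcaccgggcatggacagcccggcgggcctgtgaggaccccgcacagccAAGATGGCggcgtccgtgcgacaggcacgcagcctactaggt
MALSU1 (chr7:23299089-23299388, plus strand): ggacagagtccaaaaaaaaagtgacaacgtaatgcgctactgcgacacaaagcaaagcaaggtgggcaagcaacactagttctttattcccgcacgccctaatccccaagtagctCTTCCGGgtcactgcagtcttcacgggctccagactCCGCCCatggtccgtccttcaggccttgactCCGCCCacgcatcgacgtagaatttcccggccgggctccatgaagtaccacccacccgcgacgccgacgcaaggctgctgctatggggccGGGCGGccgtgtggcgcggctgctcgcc

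The YY1 letters stood in 28.6% of the windows of large-subunit genes and in 3.53% of all 22179 windows. The ETS letters stood in 35.7% and 12.8% of windows, and the GC box, the most common of the 6 motifs, in 58.9% and 56.3%. Counted by gene, the GC box was held by 57.8% of large-subunit genes with a window and 64.3% of all genes. Its presence in all 6 windows shown follows from how they were chosen. The windows of small-subunit genes had similar shares, with 25% for YY1 and 38.9% for ETS, so these letters are not particular to the large subunit. The NRF1 core was found in 3.57% of the windows against 2.36% of all, the E-box in 10.7% against 8.34% and the ERR letters in 1.79% against 3.22%. ETS or YY1 letters, or both, were held by 28 of the 45 genes, and 6 of these held both in the same window, with 0 cases in which they overlapped. In 10 genes the YY1 letters read forward just after the start, as in MRPL38, where they begin at base 7 of the transcript, in GADD45GIP1 at base 9 and in MRPL45 at base 14. Windows with the letters in that orientation and place made up 17.9% of those of large-subunit genes and 1.83% of all. The letters were found on both sides of the comparison. The YY1 letters stood in 9 of 29 higher genes with a window, 2 of 6 lower genes and 4 of 10 uncalled genes. The ETS letters stood in 14 of 29, 1 of 6 and 4 of 10, and the GC box in 15 of 29, 6 of 6 and 5 of 10. A match of letters is a description and shows no binding, and no test was made between these groups of genes.

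Counts by place in the ribosome, given next, stand beside shares of 36% higher and 25.2% lower over genes above the low mode. The places hold few genes, and their difference from these shares was not tested. The 4 stalk genes were all higher, with a median change of 0.59. MRPL1, the protein of the L1 stalk by which spent transfer RNA leaves, read 12.21, 12.17 and 12.26 on the shATAD3A arrays, against 11.44, 11.43 and 11.43 on the shGFP arrays. The groups lay far apart relative to their spread, and the change of 0.78 ± 0.0328 (limma adjusted p = 1.88e-05), or 1.71-fold, was the largest increase among the 52 genes. MRPL12, of the stalk that recruits translation factors and also known to bind the mitochondrial RNA polymerase, read 11.32, 11.29 and 11.23 in shATAD3A cells, against 10.69, 10.72 and 10.63 in shGFP cells. These groups did not overlap either, with a change of 0.60 ± 0.038 (adjusted p = 7.88e-05). MRPL11, at the base of that stalk, changed by 0.58 (adjusted p = 0.000221), and MRPL10, to which MRPL12 is anchored, by 0.51 (adjusted p = 0.000252).

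All 6 genes of the central protuberance were higher as well, with a median change of 0.41. MRPL38 read 7.22, 7.40 and 6.94 on the shATAD3A arrays, against 6.66, 6.30 and 6.62 on the shGFP arrays. It had the widest spread of the 6, and its lowest shATAD3A array still lay above the highest shGFP array, with a change of 0.66 ± 0.146 (adjusted p = 0.0151). The other 5 were MRPL46 (0.53), MRPL58 (0.47), MRPL18 (0.36), MRPL40 (0.35) and MRPL48 (0.31). MRPL18 is the counterpart of a bacterial protein of this region, and MRPL58, once known as ICT1, is a peptidyl-tRNA hydrolase that can release stalled ribosomes. The 10 genes of the stalks and the protuberance remained called without any 1 of the arrays. With the median change of the nearest 25 genes above the low mode on either side of the gene subtracted, MRPL40 lost its call (0.02, adjusted p = 0.729) and MRPL48 was called lower (-0.10, adjusted p = 0.0424).

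Around the tunnel exit, 6 of 8 genes were higher and 1 was lower, with a median change of 0.27. MRPL45, which holds the ribosome to the inner membrane at the exit, read 10.02, 10.30 and 10.23 in shATAD3A cells, against 9.55, 9.33 and 9.57 in shGFP cells. MRPL44, which resembles a ribonuclease, read 8.88, 9.10 and 9.17 in shATAD3A cells, against 8.50, 8.37 and 8.46 in shGFP cells. In both genes the groups were apart, with changes of 0.70 ± 0.0966 (adjusted p = 0.00205) for MRPL45 and 0.61 ± 0.0817 (adjusted p = 0.00183) for MRPL44. Another probe set of MRPL44 changed by 0.20 and did not pass the test (adjusted p = 0.584, over all probe sets). MRPL24 (0.53), MRPL22 (0.29), MRPL23 (0.26) and MRPL17 (0.21) have counterparts at the bacterial tunnel exit. MRPL23 lost the call without shATAD3A replicate 2 or 3 and without shGFP replicate 2 or 3 (adjusted p up to 0.0671). MRPL17 lost it without shATAD3A replicate 2 and without any 1 shGFP array (adjusted p up to 0.0866). MRPL47 had a change of 0.00053, with a 95% interval of -0.09 to 0.09. MRPL39 read 11.18, 11.16 and 11.26 in shATAD3A cells, against 11.49, 11.50 and 11.49 in shGFP cells. Its groups did not overlap, and it was lower by a change of -0.29 ± 0.0361 (adjusted p = 0.00122).

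The genes of the catalytic centre and the tunnel wall had 3 of 5 members higher, 1 lower and a median change of 0.17. MRPL16 (0.23), MRPL27 (0.19) and MRPL3 (0.17), all of them counterparts of bacterial proteins near the peptidyl transferase centre, were higher. The call of MRPL3 was lost without shATAD3A replicate 2 or 3 and without shGFP replicate 2 or 3 (adjusted p up to 0.092). MRPL4, of the tunnel wall, changed by -0.03, with a 95% interval of -0.13 to 0.08. MRPL2, a protein bound to the ribosomal RNA close to the catalytic centre, read 6.86, 7.30 and 7.50 on the shATAD3A arrays, against 8.02, 7.88 and 7.88 on the shGFP arrays. The shATAD3A arrays were all lower but scattered, and the change of -0.71 ± 0.162 (adjusted p = 0.017) was the largest decrease among the 52 genes. The call was lost without shGFP replicate 1 (adjusted p = 0.0604). Another MRPL2 probe set changed by -0.32 (adjusted p = 0.10 over all probe sets).

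The remaining proteins with a bacterial counterpart had 8 of 14 genes higher and 4 (28.6%) lower. The lower share was near the 25.2% of genes above the low mode. MRPL36 (0.47), MRPL20 (0.43), MRPL21 (0.40), MRPL15 (0.31), MRPL9 (0.30), MRPL28 (0.24), MRPL35 (0.22) and MRPL33 (0.18) were higher. MRPL28 passed narrowly (adjusted p = 0.044), and its call was lost without shATAD3A replicate 1 or 3 and without shGFP replicate 2 or 3 (adjusted p up to 0.134). Other probe sets of MRPL35 changed by -0.05 and -0.20 without passing the test. MRPL34, a small protein buried in ribosomal RNA, read 11.07, 11.07 and 11.05 in shATAD3A cells, against 11.48, 11.50 and 11.44 in shGFP cells. MRPL14, which lies at the face of the large subunit that meets the small one, read 13.01, 13.01 and 12.92 in shATAD3A cells, against 13.40, 13.37 and 13.30 in shGFP cells. In each the shATAD3A arrays lay together below the shGFP arrays, with changes of -0.41 ± 0.0288 (adjusted p = 0.000122) for MRPL34 and -0.38 ± 0.041 (adjusted p = 0.000719) for MRPL14. MRPL13 read 12.11, 11.96 and 11.97 in shATAD3A cells, against 12.26, 12.29 and 12.20 in shGFP cells. MRPL32, which must be cut by a protease in the matrix before it can join the ribosome, read 12.40, 12.38 and 12.38 in shATAD3A cells, against 12.58, 12.48 and 12.55 in shGFP cells. Neither gene's groups overlapped, and the changes were -0.24 ± 0.0499 (adjusted p = 0.012) for MRPL13 and -0.15 ± 0.0347 (adjusted p = 0.0201) for MRPL32. The MRPL32 call was lost without shATAD3A replicate 2 or 3 and without shGFP replicate 1 or 3, with adjusted p between 0.0587 and 0.0754.

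Among the 11 other measured proteins that only mitochondria have, 6 were higher and 5 did not pass the test. MRPL37 read 11.44, 11.47 and 11.55 on the shATAD3A arrays, against 10.81, 10.72 and 10.62 on the shGFP arrays, a change of 0.77 ± 0.0576 (adjusted p = 0.000157). MRPL57 read 12.72, 12.90 and 12.88 in shATAD3A cells, against 12.31, 12.10 and 12.16 in shGFP cells, a change of 0.64 ± 0.0725 (adjusted p = 0.000846). The groups of both genes stood apart. For MRPL57 a second bright probe set changed by 0.87, while 2 others changed by 0.05 and 0.17 and did not pass the test. MRPL54 (0.52), MRPL51 (0.49), MRPL49 (0.41) and MRPL41 (0.36) were the other higher genes. MRPL55 changed by 0.39 and just missed the test (adjusted p = 0.0533, 95% interval 0.09 to 0.68), though its groups did not overlap. It passed without shGFP replicate 1 (adjusted p = 0.0426). The intervals of the 4 others, MRPL50, MRPL42, MRPL52 and MRPL43, all held 0. Proteins without a bacterial counterpart, counted over all places in the ribosome, were higher in 13 of 19 genes and lower in 1, with a median change of 0.41. Those with one were higher in 20 of 29 and lower in 5, with a median of 0.23, and the difference between these medians was not tested.

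**Figure D2:**
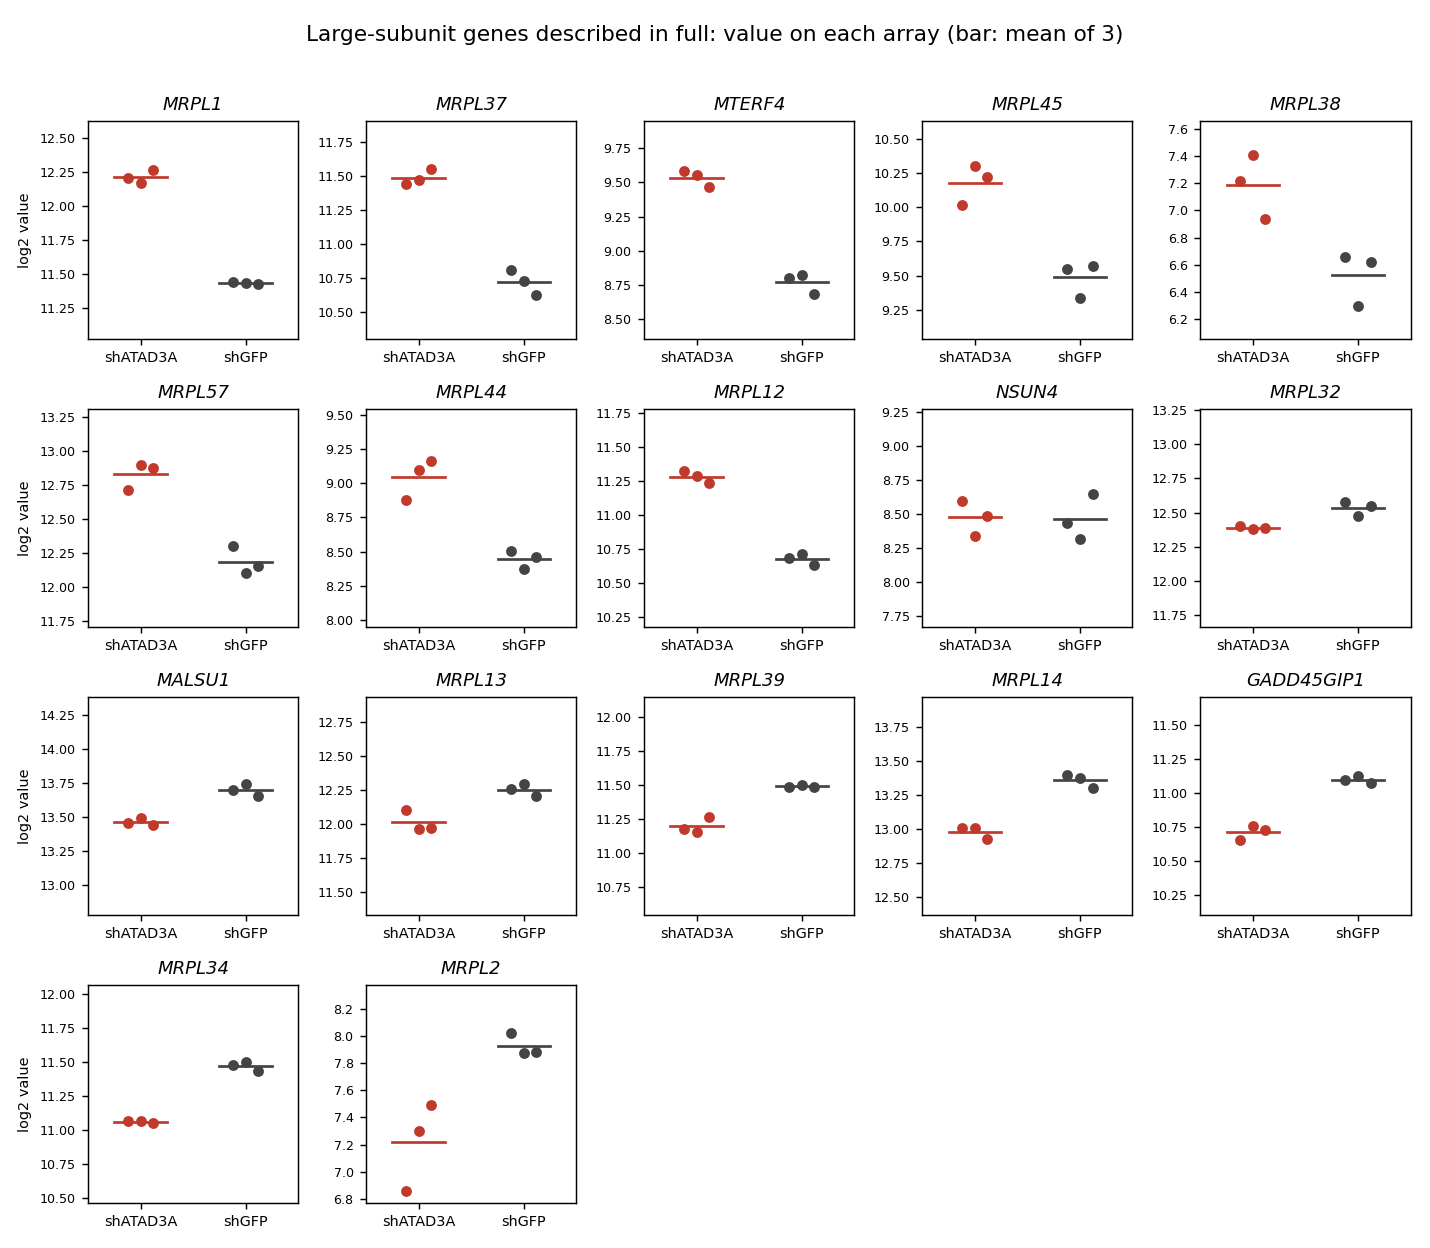
Log2 value on each array for the 17 genes described in full, red points for the 3 shATAD3A arrays on the left of each panel and grey points for the 3 shGFP arrays on the right, with bars for the means; each panel spans the same range of log2 units around its own centre. The groups are apart in every panel but that of NSUN4, and the shATAD3A arrays of MRPL2 and MRPL38 scatter most.

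The 4 assembly-linked genes moved in different directions. MTERF4, which brings the methyltransferase NSUN4 to the large subunit, read 9.58, 9.55 and 9.46 on the shATAD3A arrays, against 8.80, 8.82 and 8.68 on the shGFP arrays. NSUN4, which methylates ribosomal RNA and works in a complex with MTERF4, read 8.60, 8.34 and 8.49 in shATAD3A cells, against 8.44, 8.32 and 8.65 in shGFP cells. The groups of MTERF4 were far apart, with a change of 0.76 ± 0.0521 (adjusted p = 0.000107), whereas those of NSUN4 overlapped, with a change of 0.0081 (adjusted p = 0.981, 95% interval -0.25 to 0.26). All 4 MTERF4 probe sets were higher, by 0.67 to 1.81. NSUN4 had a dimmer probe set that was higher by 0.73 (adjusted p = 0.0329 over all probe sets), so its probe sets disagreed.

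MALSU1 binds the large subunit at MRPL14 and keeps the subunits from joining too early. It read 13.46, 13.49 and 13.44 in shATAD3A cells, against 13.70, 13.74 and 13.66 in shGFP cells. GADD45GIP1, also known as CRIF1, sits near the tunnel exit and is needed for mitochondrial proteins to be made and inserted. It read 10.66, 10.76 and 10.73 in shATAD3A cells, against 11.10, 11.13 and 11.07 in shGFP cells. Both were lower without overlap, with changes of -0.24 ± 0.0338 (adjusted p = 0.00237) for MALSU1 and -0.38 ± 0.037 (adjusted p = 0.00043) for GADD45GIP1. Of the other MALSU1 probe sets above the low mode, 2 were lower, by -0.25 and -1.11, and another, at -0.04, did not pass the test (adjusted p = 0.661 over all probe sets). MALSU1 and its binding partner MRPL14 were thus both lower.

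**Figure D3:**
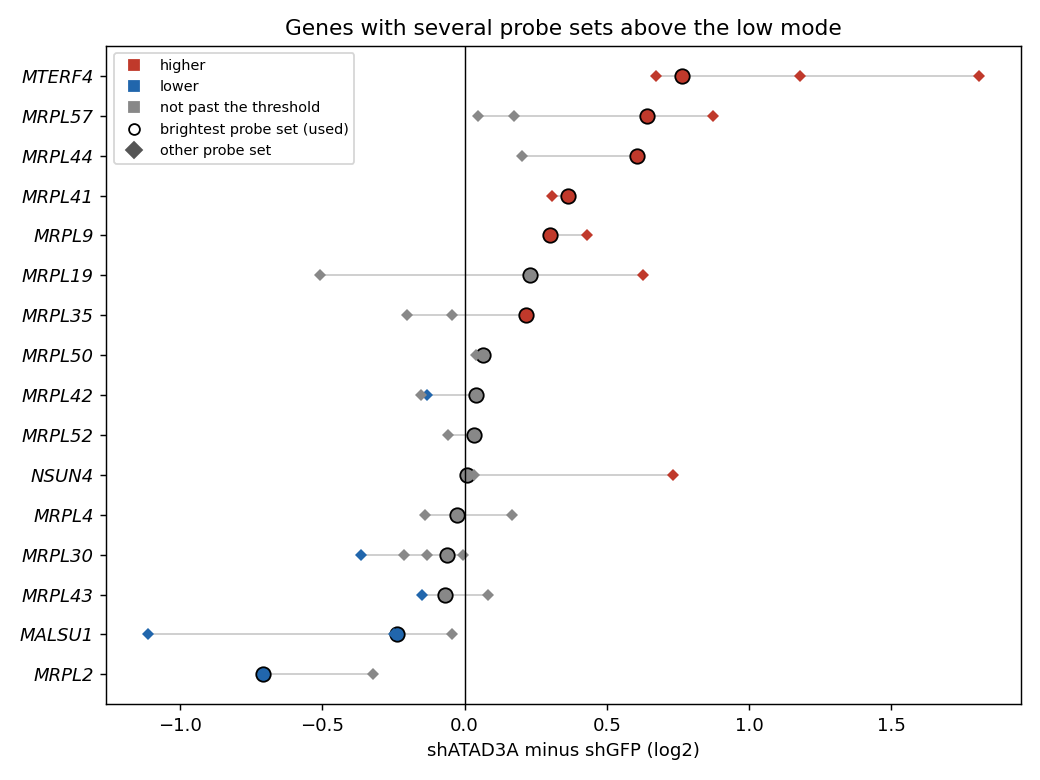
Change, shATAD3A minus shGFP on the log2 scale, of each probe set above the low mode for the 16 genes with several; circles are the brightest probe set, which was used, and diamonds the others, coloured by the test over all probe sets. No gene has probe sets called in both directions, and NSUN4, MRPL19 and MALSU1 show the spread between probe sets of 1 gene.

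Across probe sets, 24 of the 52 genes had several given to them alone, and in 16 of these more than 1 lay above the low mode. None of the 16 had called probe sets in both directions. In MRPL19, whose brightest probe set did not pass the test (0.23, adjusted p = 0.123), another was higher by 0.63 (adjusted p = 0.026 over all probe sets) and another stood at -0.51 (adjusted p = 0.094). MRPL30, MRPL42 and MRPL43, uncalled on their brightest probe sets, each had another that was lower, by -0.36, -0.13 and -0.15. MRPL9 and MRPL41 had a further higher probe set each, at 0.43 and 0.31. Probe sets named s_at or x_at, which may bind several transcripts, were the brightest for 31 of the 52 genes. With these types left out, 31 genes could still be measured, of which 17 were higher and 1, MRPL43, was lower. None of the 8 lower genes was called in that setting: MRPL2, MRPL39 and MALSU1 did not pass the test on another probe set, and the other 5 could not be measured. The substitute probe set of MRPL39 lay in the low mode, so it carries no information on that gene.

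Genes that neighbour the large-subunit genes on the chromosomes often changed in the same direction. For each gene the median change of the nearest 25 genes above the low mode on either side, its bright neighbours, was taken, a measure chosen after the data were seen. All 8 lower genes lay among neighbours whose median was below 0, from -0.33 around MRPL13 to -0.60 around MALSU1. The neighbour medians were -0.49 for GADD45GIP1, -0.43 for MRPL39, -0.41 for MRPL32, -0.41 for MRPL2, -0.36 for MRPL14 and -0.36 for MRPL34. By this measure 3 of the 8, MRPL2, MRPL14 and MRPL34, fell further than their neighbours. With all neighbouring genes counted, dim ones included, the medians around the 8 were also below 0 but closer to it, from -0.02 around MRPL39 and -0.04 around MALSU1 to -0.37 around GADD45GIP1, and all 8 fell further than their neighbours. Among all lower genes above the low mode, 52% had bright neighbours with a median below 0 and 65% had a median of all neighbours below 0. Of the 34 higher genes, 31 (91.2%) had bright neighbours with a median above 0, close to the 85% of all higher genes above the low mode and the 71.8% of all genes there. With all neighbouring genes counted it was 24 of 34. MRPL51 (0.57), MRPL36 (0.54) and MRPL54 (0.49) had neighbour medians at or near their own changes. The largest increases did not, with neighbour medians of 0.07 for MRPL1, 0.13 for MRPL37, 0.06 for MRPL45 and -0.08 for MRPL57, and 0.32 for MTERF4.

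Across the 52 genes the change and the median of bright neighbours correlated with r = 0.73 and rho = 0.60, compared with r = 0.34 over all genes above the low mode. These are correlations across genes of the same arrays, and genes are not independent replicates. The change exceeded the neighbour median in 41 of the 52 genes, with a median excess of 0.18. With the median of bright neighbours subtracted, 29 genes were higher and 2 lower, of which 24 were among the 34 higher genes and 0 among the 8 lower ones. MRPL32 (0.27), MALSU1 (0.36), MRPL39 (0.14) and GADD45GIP1 (0.11) were then higher relative to their neighbours, and MRPL48 (-0.10) was lower. With the median of all neighbours subtracted, 33 genes were higher and 4 lower, and all of these had the same call before. By chromosome, all 7 genes on chromosome 11 and all 6 on chromosome 17 were higher, with medians of 0.31 and 0.56. Genes above the low mode had medians of 0.084 and 0.12 on these chromosomes. On chromosome 6, 1 of 3 genes was higher and 2 were lower, with a median of -0.38 beside -0.20 over genes above the low mode. MRPL39, the 1 gene on chromosome 21, lay at -0.29 beside -0.28. The 2 genes on chromosome 12 had a median of 0.27 beside 0.35. Shares of called genes by chromosome were not counted. DNA copy number was not analysed here, and its part in these changes was not tested.

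**Figure D4:**
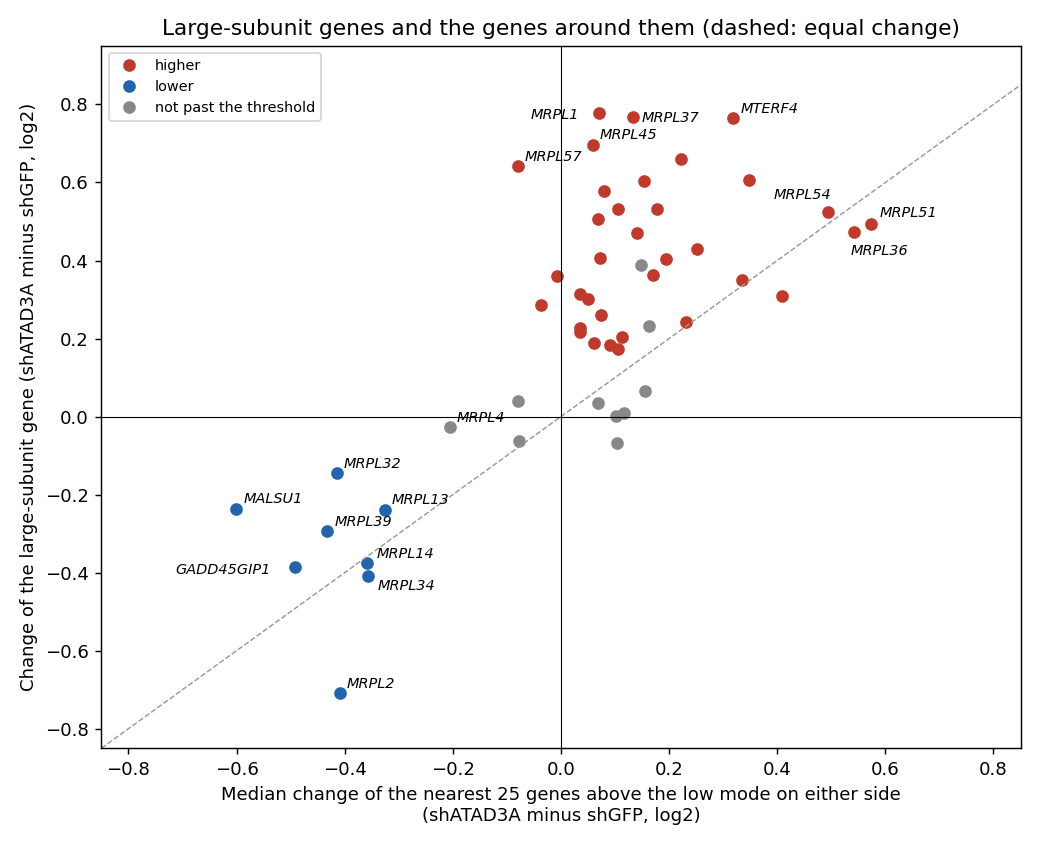
Change of each of the 52 genes against the median change of the nearest 25 genes above the low mode on either side, both shATAD3A minus shGFP on the log2 scale; the dashed line marks equal change. The 8 lower genes (blue) all lie left of 0, and most higher genes (red) lie above the dashed line.

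Other genes that serve the large subunit were also more often higher than lower, as were genes above the low mode in general (36% higher, 25.2% lower). The difference of these short lists from those shares was not tested. Of 16 further factors of large-subunit assembly, 14 of them above the low mode, 8 were higher and 8 did not pass the test, with a median change of 0.20. The uncalled 8 included those in the low mode. MRM3, which methylates the large ribosomal RNA, changed by 0.73 (adjusted p = 0.000265), RCC1L, a factor of pseudouridine formation and assembly, by 0.43 (adjusted p = 0.00338), and MTERF3 by 0.40 (adjusted p = 0.000915). Among 4 genes of mitochondrial transcription, which makes the ribosomal RNA, 2 were higher. POLRMT, the mitochondrial RNA polymerase, read 8.27, 8.61 and 8.47 in shATAD3A cells, against 7.35, 7.40 and 7.40 in shGFP cells. The groups were widely separated, with a change of 1.07 ± 0.0845 (adjusted p = 0.000199) among neighbours at 0.52. TFAM, which packs mitochondrial DNA, changed by 0.31 (adjusted p = 0.00595) among neighbours at -0.06.

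Of 6 genes for the import processing and membrane insertion of mitochondrial proteins, 5 of them above the low mode, 3 were higher and 1 lower. MIPEP, a processing peptidase, changed by 0.57 (adjusted p = 0.00429), OXA1L, the insertase that MRPL45 faces, by 0.31 (adjusted p = 0.0173), and PMPCB by 0.19 (adjusted p = 0.0047). AFG3L2 is a subunit of the protease that, in yeast and mouse, cuts MRPL32 for assembly. It read 12.87, 12.91 and 12.88 in shATAD3A cells, against 13.13, 13.15 and 13.08 in shGFP cells. The groups did not overlap, and AFG3L2 was lower by a change of -0.24 ± 0.03 (adjusted p = 0.00139) among neighbours at -0.29. MRPL32 was also lower, by -0.15 among neighbours at -0.41, and was higher by 0.27 with that median subtracted. Its lower call was lost when some single arrays were left out.

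The small subunit, measured with 30 genes, had 21 higher and 4 lower and a median change of 0.37. MRPS35 changed by 1.03 (adjusted p = 3.27e-05) among bright neighbours at 0.46, and MRPS26 by 0.93 (adjusted p = 3.62e-05) among neighbours at 0.40. MRPS9 changed by 0.84 (adjusted p = 8.71e-05) among neighbours at 0.07. Lower genes were MRPS6, by -0.54 (adjusted p = 8.24e-05) among neighbours at -0.36, and MRPS10, by -0.27 (adjusted p = 0.00271) among neighbours at -0.43. MRPS30 was lower by -0.34 (adjusted p = 0.00147) among neighbours at 0.06. MRPS30 and MRPS18A carry small-subunit names but their proteins are known to sit in the large subunit, and they are not counted in it here. MRPS18A, chosen after its values were seen, changed by 0.33 (adjusted p = 0.000696) among neighbours at -0.46. Both therefore had the opposite sign to the median of their bright neighbours. With all neighbouring genes counted, the medians were -0.0067 around MRPS30, the same sign as its change, and -0.22 around MRPS18A. The large subunit of the cytosolic ribosome had 3 of 32 genes higher, 3 lower and a median change of 0.056. Among genes above the low mode, 36% were higher and 25.2% lower. Of 46 cytosolic genes listed, 32 were measured and 31 lay above the low mode. Their median level on shGFP arrays was 15.3, against 11.2 for the 52 genes and 16.4 for the highest of all genes. The part of this high level in their small changes was not tested, nor was the difference from the mitochondrial large subunit.

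**Figure D5:**
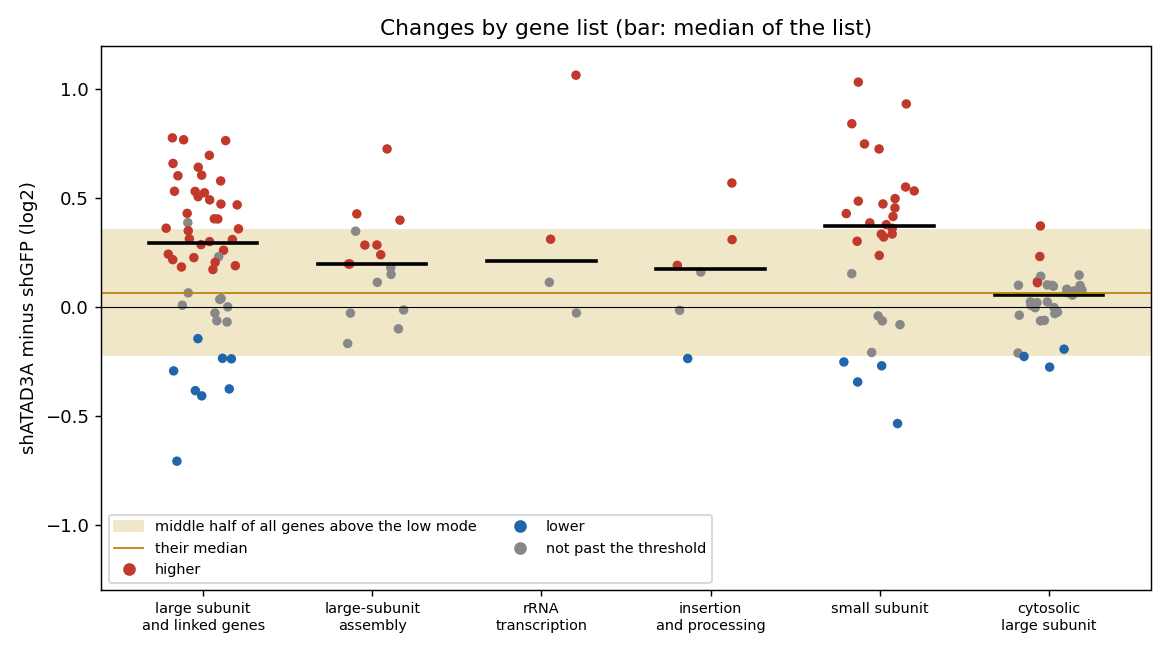
Change of each gene, shATAD3A minus shGFP on the log2 scale, in the large subunit with its 4 linked genes and in 5 related lists; black bars are list medians, and the band and line give the quartiles and median of all genes above the low mode. Medians of the mitochondrial lists lie between 0.18 and 0.37, above the median of 0.056 for the cytosolic large subunit. The cytosolic genes had a median shGFP level of 15.3, near the top of the values, and this difference was not tested.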

How the data were processed

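RNA from 6 samples, 3 shATAD3A and 3 shGFP, was measured on 1-colour arrays. The authors deposited log2 values, a scale read from their range and shape, and the summary method is not given in the sources used here. The submitters' processing notes name Partek with no version. Of 54675 probe sets, 62 were controls. By the 2016 platform annotation, 41091 carried 1 gene symbol, 1801 several and 11721 none. Each gene was represented by its single-symbol probe set of highest mean value, with no filter on dim ones.

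The comparison was fitted over 19775 genes in R 4.3.3 with limma 3.58.1, by lmFit and eBayes, as a two-sided test without covariates, and called at 0.05 after Benjamini-Hochberg adjustment. The fit was tested on simulated data with 50 changed genes of each size. It recovered 46% of changes of 0.3, 84% of 0.5, 94% of 1 and 100% of 2. Far fewer genes were changed there than were called in the data, so these shares do not carry over exactly. A gene that did not pass may still have changed by a small amount. Each array was counted as its own sample. At most 0.0165% of values were identical in any pair, so none was a copy of another, but arrays of the same culture would differ too. The number of arrays limits the precision.

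Members and lists were chosen with earlier results of these data known. Values by array are given for the 8 largest increases and 8 largest decreases called without overlap, the 4 assembly-linked genes and ATAD3A. Up to 3 called genes in each direction come from other lists. A few values of AFG3L2 and POLRMT by array were added after they were seen. Deviations from the group means correlated at -0.24, -0.16 and 0.05 between arrays of the same replicate number. With 3 arrays per group this cannot settle whether the numbers pair the samples, and they were not treated as pairs. Alternatives covered normalization, filters on dim values, probe set choice, variance prior, weights, threshold, replicate block, leaving out each array and neighbouring genes. Gene order and promoters came from RefSeq's GRCh38.p14 tables.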

Additional observations from a re-analysis of the deposited data

How the results depend on the processing

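Under most of 18 alternatives the counts stayed near 34 higher and 8 lower genes, but the lower genes were less stable. Of the 8, 0 kept the call without s_at and x_at probe sets, where most could not be measured. With the median of neighbours above the low mode subtracted, 0 kept it as well. Arrays centred on their medians gave 29 higher and 7 lower genes. Leaving out 1 array gave 30 to 34 higher and 6 to 8 lower genes, a median change of 0.26 to 0.31, 5845 to 6457 called genes over the whole array and 35 to 42 called genes in the other mitochondrial lists, 39 with all arrays. Of the higher genes 30 kept the call without any 1 array, and of the lower genes 6. Removal of s_at and x_at probe sets left 31 measured genes with 17 higher, 1 lower (MRPL43, uncalled before) and a median of 0.23. It left 24 called genes in the other lists. MRPL12 (0.07), MALSU1 (-0.04), MRPL39 (-0.58) and MRPL2 (-0.32) were then uncalled on other probe sets, which for MRPL12 and MRPL39 lay in the low mode. Averaged probe sets gave a median of 0.22. An adjusted p of 0.01 left 5 lower genes. With the replicate number as a block, 31 genes were higher, 7 lower and 6057 genes were called in all, and the call of MRPL32 was lost. Whether the numbers pair the samples is not known. Subtracting the median of all neighbouring genes left 4 lower genes. Subtracting that of neighbours above the low mode, chosen after seeing the data, gave 2 lower genes, 0 of them among the 8, and a median of 0.18. It turned the sign of 14 of the 52 genes, 5 lower, 3 higher and 6 uncalled. Among them were MRPL32 (0.27), MALSU1 (0.36), MRPL13 (0.088), MRPL39 (0.14), GADD45GIP1 (0.11), MRPL48 (-0.10), MRPL51 (-0.08), MRPL36 (-0.07) and NSUN4 (-0.11), and the 5 opposite calls were MRPL32, MALSU1, MRPL39, GADD45GIP1 and MRPL48. This alternative subtracts a fixed value, without its error. NSUN4, near 0, lay between -0.068 and 0.10 when single arrays were left out, with -0.053 without shATAD3A replicate 1, -0.0075 without shGFP replicate 1 and -0.068 without shGFP replicate 2. Arrays carry no read depth, and all 52 genes lay above the low mode.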
